A study of Mus musculus with 16 samples.

Results

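Cyclic nucleotide phosphodiesterase genes were followed in cultures labelled as JG cells that had received miR-106b or a control miRNA. The label is not borne out by Ren1, the renin gene, which had 0 counts in all 16 libraries. Cardiac muscle genes were abundant, and 12 of 14 genes of a juxtaglomerular and mural list passed the filter on low counts, as described further on. The members, chosen by gene symbol, were Pde1a, Pde1c, Pde2a, Pde3a, Pde3b, Pde4b, Pde4d, Pde5a, Pde8a and Pde10a, which are 10 of the 46078 genes in the count table, and all 10 passed the filter on low counts. Pde3b and Pde10a were compared with the other members. The study picked these 2 genes from the same libraries, among mRNAs whose Ago2:polyA ratio rose at least 2-fold with miR-106b. They lay in interaction networks centred on Ppargc1a (Pde3b) and on adenylate cyclases (both genes). Their polyA fall, their ratio and their difference from other members are therefore descriptions and no independent evidence, whatever p they carry. The study reported 3′UTR sites of the miRNA family for Pde3b and not for Pde10a. Outside these libraries it reported less PDE3B protein in JG cells given media of macrophages without the vitamin D receptor, and more renin after Pde3b siRNA. The cells were a mouse culture described as engineered juxtaglomerular (JG) cells, which in the kidney make renin, carrying YFP driven by the renin promoter. All 4 groups were harvested 48 h after transfection and comprised polyA RNA of control cells (a non-mammalian miRNA precursor), polyA RNA of miR-106b cells, and RNA immunoprecipitated with Ago2 (Ago2-IP RNA) from control and from miR-106b cells. Each group held 4 libraries, made from replicate cultures, and the cultures used for Ago2-IP were not those used for polyA RNA. The deposited value is the number of reads counted on a gene, which ranged from 7 to 527 for the members.

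Phosphodiesterases hydrolyse the second messengers cAMP and cGMP and so end the signal that adenylyl and guanylyl cyclases start. In JG cells cAMP promotes renin release and renin transcription through protein kinase A and CREB, and phosphodiesterase 3, which cGMP inhibits, is a known link between cGMP and cAMP there. A miRNA loaded into Ago2 pairs through its seed with the 3′UTR of an mRNA, and an mRNA held in this complex is recovered by Ago2-IP.

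The mature miRNA and the matching 3′UTR windows are shown because the members that carried a site did not move in one direction. The RefSeq sequence of mmu-miR-106b-5p (GRCm38.p6, chr5:138165787-138165807, minus strand) is given 5′ to 3′ with its seed, bases 2 to 8, in capitals.
mmu-miR-106b-5p: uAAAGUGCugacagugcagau
The letters GCACTTT (7mer-m8) and CACTTTA (7mer-A1), their union GCACTTTA (8mer) and the 6mer CACTTT, which lies inside all of these, were searched on the transcript strand in the longest 3′UTR of each gene in GENCODE M21 (GRCm38). A 7mer or 8mer was found in 3 of the 10 members, Pde1c, Pde3b and Pde5a, against 22.2% of the 13222 tested genes with a 3′UTR. The windows of these 3 members follow, on the transcript strand, with the matching letters in capitals.
Pde3b chr7:114536399-114536405 plus strand: ctcactcctaaGCACTTTcattacaaaca
Pde3b chr7:114537813-114537819 plus strand: atgaatcactaCACTTTAtttattaaaca
Pde5a chr3:122855423-122855429 plus strand: cagacttgagtGCACTTTgccactgctgt
Pde5a chr3:122858654-122858660 plus strand: atacataacatGCACTTTtatccaaaatt
Pde1c chr6:56106543-56106549 minus strand: acatgaaaggcCACTTTAtaatccattac
Pde1c chr6:56104017-56104023 minus strand: aaatcattaaaGCACTTTtttccactggc
The sites of Pde3b began at bases 151 and 1565 of a 3′UTR of 3003 bases, those of Pde5a at bases 91 and 3322 of 4042, and those of Pde1c at bases 301 and 2827 of 6404. The median of the longest 3′UTR over the tested genes was 1222 bases, so that these 3 were longer than most. No member held the 8mer. With 6mers included, 5 members had a match, Pde3a and Pde10a in addition, where 42.0% of the genes with a 3′UTR did. The 3 carriers of a 7mer differed in polyA RNA: the level with miR-106b minus that in control was -1.10 on the log2 scale for Pde3b, 1.24 for Pde1c and 0.22 for Pde5a, the last of which did not pass the test given further on.

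The 16 libraries held 2579086 to 9459585 counts, so that 3 counts, the limit that a count of 0 allows, equal 0.317 to 1.16 CPM (counts scaled to library size), counting error only. Against the label, Ren1, which encodes renin, had 0 counts in all 16 libraries and Akr1b7, another JG cell gene, had 6 counts in total. The other 12 genes of the juxtaglomerular and mural list used below passed the filter on low counts. Their means in polyA control ran from 1.27 (Cnn1) to 752 normalized CPM (Acta2), with Tagln at 495, Pdgfrb at 117 and Foxd1 at 52.4. Summed over 25 cardiac muscle genes, the level was 24117 to 34282 CPM in polyA control, 47003 to 81424 CPM in polyA miR-106b and 105880 to 116410 CPM in Ago2-IP libraries. In polyA RNA 22 of the 23 cardiac genes tested rose (Myl7 and Sln did not pass the filter), as did 6 of 6 endothelial and 6 of 6 leukocyte genes, and 8 of 8 genes of proliferating cells fell. The endothelial genes summed to 236 to 356 CPM in polyA control, 450 to 842 CPM in polyA miR-106b and 1029 to 1151 CPM in Ago2-IP libraries, and the leukocyte genes to 118 to 176, 252 to 405 and 537 to 601 CPM. The genes of proliferating cells summed to 416 to 613 CPM in polyA control, 55.1 to 291 CPM in polyA miR-106b and 48.0 to 60.6 CPM in Ago2-IP libraries. A list of 14 juxtaglomerular and mural cell genes, Ren1 and Akr1b7 among them, summed to 1489 to 1670, 1271 to 1863 and 989 to 1083 CPM, and 6 of the 12 tested rose in polyA RNA and 1 fell. Of all genes tested 19.0% rose and 21.5% fell in polyA RNA. The plot of marker levels shows that the cardiac and the proliferation lists moved in opposite directions between the polyA groups. These shifts move with the phosphodiesterase changes below, and their part in them was not tested.

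**Figure D1:**
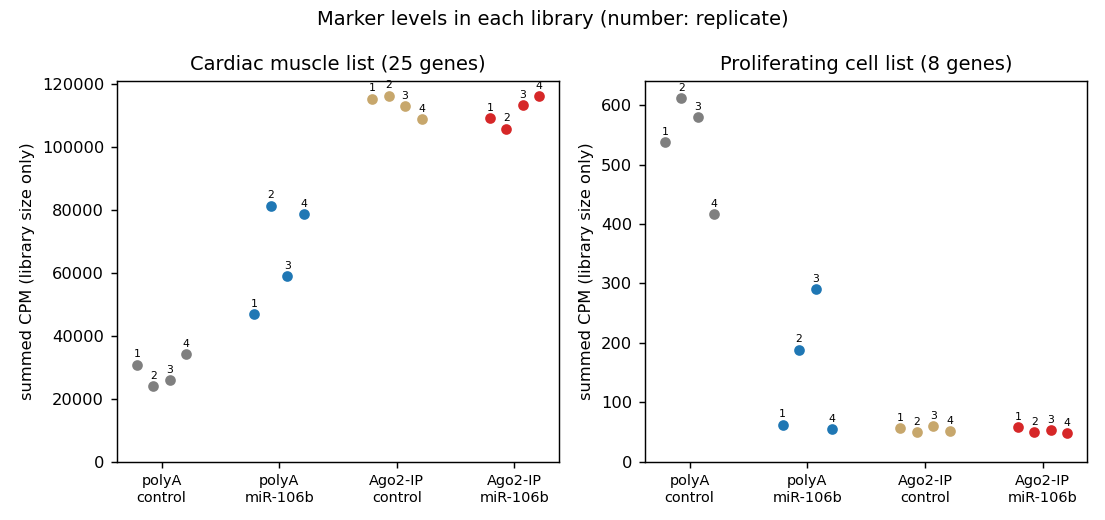
Summed CPM, scaled to library size only, of 25 cardiac muscle genes (left) and 8 genes of proliferating cells (right) in each library, with the replicate number beside each point. The 4 polyA miR-106b libraries lie above the polyA controls for the cardiac list and below them for the proliferation list, and the 8 Ago2-IP libraries sit close together in both.

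The first question was whether miR-106b changed phosphodiesterase mRNA in polyA RNA. Pde1c, Pde2a, Pde8a and Pde3a rose and Pde3b and Pde10a fell, which is 4 higher and 2 lower of 10 members. The test was edgeR's quasi-likelihood F test with a threshold of 0.05 on the adjusted p, which 40.5% of all 14897 genes tested passed, 19.0% higher and 21.5% lower. Over all genes the balance was not stable: 2836 were higher and 3198 lower, but 3163 and 2642 with DESeq2 size factors. Without polyA control replicate 1, 2 or 3 the higher calls were 2737, 2486 and 2579 and the lower calls 1834, 1640 and 1707, while the number of members called was 6 to 7 with any 1 library left out. The median log2 change was 0.303 over the members and -0.0543 over all genes tested. For each of these 6 members the ranges of both polyA groups were separate, which held for 38.3% of all genes tested. In bulk RNA a smaller number of cells that express a gene and less of its RNA per cell cannot be told apart. The plot of CPM by library shows each value.

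**Figure D2:**
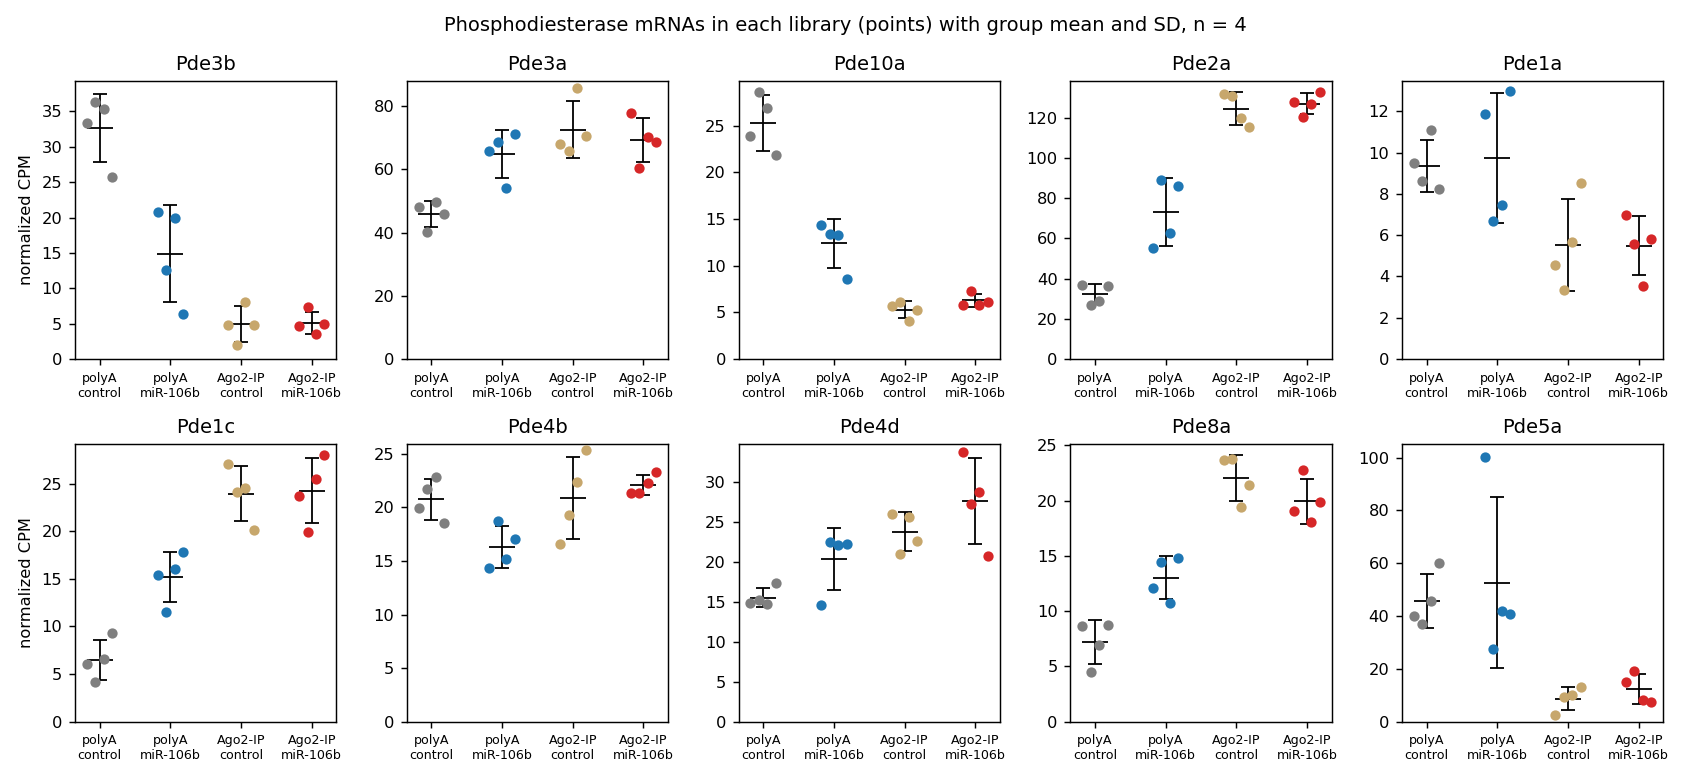
Normalized CPM of the 10 members in each library, with the group mean and SD (n = 4). In polyA RNA, Pde3b and Pde10a lie lower with miR-106b in all 4 libraries, Pde1c, Pde2a, Pde8a and Pde3a lie higher, and 1 miR-106b library of Pde5a stands at 100.4 CPM, while the 2 Ago2-IP groups overlap for each member.

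Pde3b encodes a cGMP-inhibited phosphodiesterase that hydrolyses cAMP (chr7:114415281-114539251, plus strand). Its polyA level was 33.4, 36.3, 35.4 and 25.7 normalized CPM in the control libraries and 20.8, 12.6, 19.9 and 6.31 CPM with miR-106b. The lowest control library was above the highest miR-106b library, and the miR-106b libraries were spread wider, with a coefficient of variation of 45.7% against 14.7%. The fall was 2.14-fold, a log2 change of -1.10 (SE 0.257, adjusted p = 0.00484, edgeR). Pde3a encodes the related enzyme of heart and smooth muscle (chr6:141249269-141505940, plus strand) and went the other way. Its polyA level was 47.9, 40.3, 49.6 and 45.8 CPM in control and 65.9, 68.8, 54.1 and 71.2 CPM with miR-106b. All 4 miR-106b libraries were above all controls, with a log2 change of 0.50 (SE 0.121, adjusted p = 0.00587). An antisense gene, Gm28523, shares 741 exonic bases with Pde3a, and the libraries kept no strand.

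Pde10a, a dual cAMP and cGMP phosphodiesterase best known from the striatum (chr17:8525372-8986648, plus strand), fell by a similar amount to Pde3b. Its polyA level was 23.9, 28.5, 26.8 and 21.9 CPM in control and 14.3, 13.4, 13.3 and 8.53 CPM with miR-106b. The groups did not overlap, and replicate 4 was the lowest library in both groups. The log2 change was -1.01 (SE 0.172, adjusted p = 0.000891), a 2.02-fold fall. Replicate 4 of the miR-106b group was lowest for Pde3b and for the proliferation sum (55.1 CPM) as well, whereas replicate 1, with a proliferation sum of 62.4 CPM, was the highest of its group for both genes.

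Pde2a, whose enzyme hydrolyses cAMP and cGMP and is activated by cGMP (chr7:101421691-101512829, plus strand), rose. Its level was 36.7, 27.1, 29.1 and 36.4 CPM in control and 55.1, 89.1, 62.7 and 86.1 CPM with miR-106b. All 4 miR-106b libraries were above all controls. Among them the order was that of the cardiac sum, with replicate 1 lowest in both, which did not hold for Pde1c, Pde8a and Pde3a. The log2 change was 1.18 (SE 0.171, adjusted p = 0.000683). Pde2a shares 150 exonic bases with Arap1 on the same strand.

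The calcium and calmodulin activated enzymes differed from each other in the data. Pde1c (chr6:56069821-56369634, minus strand) was at 6.01, 4.20, 6.60 and 9.27 CPM in control and 15.5, 11.5, 16.01 and 17.8 CPM with miR-106b. The groups did not overlap, and the rise of 2.36-fold (log2 change 1.24, SE 0.242, adjusted p = 0.00177) was the largest among the 10 members. It was within its SE of that of Pde2a (1.18). With 1 library left out their ranges overlapped, at 1.14 to 1.45 for Pde1c and 1.07 to 1.38 for Pde2a. Pde1a (chr2:79834453-80129458, minus strand) was at 9.49, 8.60, 11.1 and 8.22 CPM in control and 11.9, 6.69, 7.45 and 12.98 CPM with miR-106b. Its miR-106b libraries lay on both sides of the controls, and the log2 change of 0.05 had a 95% interval of -0.45 to 0.55.

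Among the cAMP-specific enzymes Pde8a passed the test, and Pde4b and Pde4d did not. Pde8a (chr7:81213596-81334533, plus strand) was at 8.70, 4.51, 6.90 and 8.75 CPM in control and 12.1, 14.5, 10.8 and 14.8 CPM with miR-106b. These groups did not overlap, with a log2 change of 0.87 (SE 0.232, adjusted p = 0.0102). Pde4b (chr4:102087543-102607259, plus strand) was at 19.9, 21.7, 22.8 and 18.5 CPM in control and 14.3, 18.7, 15.2 and 17.1 CPM with miR-106b. Its highest miR-106b library was just above its lowest control, and the log2 change was -0.35 (SE 0.147, adjusted p = 0.0721). With 1 library left out that change ran from -0.43 to -0.21. Pde4d (chr13:108449948-109953461, plus strand) was at 14.9, 15.2, 14.7 and 17.3 CPM in control and 14.6, 22.5, 22.1 and 22.3 CPM with miR-106b. Of its miR-106b libraries 3 were above all controls and replicate 1 was below them, and the log2 change of 0.38 (SE 0.167, adjusted p = 0.0849) became 0.60 (adjusted p = 0.00377) without that library, the one with the lowest cardiac sum of its group.

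Pde5a, the cGMP-specific enzyme that sildenafil inhibits (chr3:122728947-122859374, plus strand), had the widest spread. Its polyA level was 40.0, 36.9, 45.7 and 60.2 CPM in control and 100.4, 27.6, 42.0 and 40.8 CPM with miR-106b. Replicate 1 of the miR-106b group was the highest of the 8 libraries and replicate 2 the lowest. The log2 change was 0.22 with a 95% interval of -0.60 to 1.05 (adjusted p = 0.660), and without that replicate 1 it was -0.23 (adjusted p = 0.314). A transcript on the other strand, 4930447N08Rik, overlaps 55 exonic bases.

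The second question was whether phosphodiesterase RNA recovered by Ago2-IP changed. In Ago2-IP RNA 0 of 10 members passed edgeR's quasi-likelihood test, and 0.0% of the 14897 genes did. For 0 members were the libraries of the groups separate, against 3.24% of all genes tested. At an unadjusted p under 0.05 there were 0 members and 826 genes, DESeq2 called 0 members and 2 genes, and edgeR's likelihood ratio test 0 members and 18 genes. The log2 changes ran from -0.14 for Pde8a (95% interval -0.44 to 0.15) to 0.49 for Pde5a (95% interval -0.75 to 1.73). The narrowest interval was that of Pde2a, at 132, 131, 120 and 115 CPM in control and 128, 121, 127 and 133 CPM with miR-106b, with a log2 change of 0.03 and a 95% interval of -0.10 to 0.16.

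Pde3b and Pde10a were among the members with the fewest counts in Ago2-IP RNA. Pde3b was at 4.85, 1.96, 8.08 and 4.82 CPM in control and 4.66, 7.31, 3.56 and 4.96 CPM with miR-106b, from 7 to 30 counts per library. The miR-106b libraries lay inside the range of the controls, and the 95% interval of the log2 change, -0.61 to 0.73, was wide. Pde10a was at 5.70, 6.16, 4.04 and 5.25 CPM in control and 5.83, 7.31, 5.82 and 6.12 CPM with miR-106b, from 15 to 25 counts. The 2 groups overlapped, with a log2 change of 0.25 (95% interval -0.33 to 0.83).

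The Ago2:polyA ratio, the level in Ago2-IP over that in polyA RNA, separated the members in control cells. In the fit of all 16 libraries 6 members were higher in Ago2-IP RNA and 3 lower, where 69.7% of all genes passed, 35.1% higher and 34.6% lower. On the log2 scale the ratio was 2.26 for Pde2a, 2.21 for Pde1c, 1.94 for Pde8a, 0.97 for Pde3a and 0.92 for Pde4d. It was -2.42 for Pde3b, -2.05 for Pde5a and -1.95 for Pde10a, all 8 with an adjusted p of at most 0.00174. Pde4b, at 0.32, had an adjusted p of 0.0496 that was lost in 7 of 9 alternatives, and Pde1a, at -0.43, did not pass (adjusted p = 0.154). Under library size scaling the median ratio of all genes was -0.35 in place of -0.03, with 4145 genes higher and 6784 lower in place of 5224 and 5157. Pde4b was then at 0.0017, Pde1a passed (-0.74, adjusted p = 0.0142), and the other 8 calls held. The marker lists were separated as well in the main fit. Of the cardiac genes 22 of 23 were higher in Ago2-IP RNA (median log2 ratio 2.29), as were 6 of 6 endothelial and 6 of 6 leukocyte genes (2.23 each). All 8 genes of proliferating cells were lower (-2.89), and of 12 juxtaglomerular and mural genes 8 were higher and 4 lower. The part of these shifts in the ratios of the members was not tested.

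With miR-106b the same ratios lay nearer to 0 for most members. The ratio was 0.96 for Pde2a, 0.85 for Pde1c, 0.78 for Pde8a, 0.60 for Pde4d and 0.60 for Pde4b, and -1.94 for Pde5a, -1.40 for Pde3b and -0.83 for Pde10a, 5 higher and 3 lower where 46.4% of all genes passed, 21.9% higher and 24.5% lower. Pde3a at 0.25 (adjusted p = 0.0795) and Pde1a at -0.67 (adjusted p = 0.0605) did not pass. These calls were unchanged in 7 of 9 alternatives for Pde3a and in 5 of 9 for Pde1a. With 1 library left out they were unchanged in 15 and 13 of 16 fits. Under library size scaling 2492 genes were higher and 4827 lower in place of 3267 and 3645, with a median ratio of -0.19 in place of -0.04.

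The third question was whether the ratio itself changed upon transfection, tested as an interaction term. The ratio rose for Pde10a and fell for Pde1c, Pde2a, Pde8a and Pde3a, where 27.3% of all genes passed, 7.61% higher and 19.7% lower. Under library size scaling the calls over all genes were 2002 higher and 2304 lower in place of 1134 and 2937, with the median moving to 0.10 from -0.07, and those of the members were the same in number, 1 and 4. The change was 1.12 for Pde10a (SE 0.284, adjusted p = 0.00453). It was -1.36 for Pde1c (SE 0.279, adjusted p = 0.000693), -1.30 for Pde2a (SE 0.184, adjusted p = 2.51e-05), -1.16 for Pde8a (SE 0.264, adjusted p = 0.00186) and -0.72 for Pde3a (SE 0.161, adjusted p = 0.00166). For Pde3b it was 1.02 (SE 0.491, 95% interval -0.01 to 2.05) and did not pass (adjusted p = 0.134). The criterion of the study was the fold rise named at the outset and not an adjusted p. In this fit the rise was 2.03-fold for Pde3b and 2.17-fold for Pde10a, both above that criterion. Without a filter on low counts the Pde3b value passed (1.16, adjusted p = 0.00474), and likewise without Ago2-IP control replicate 3, its highest library (1.35, adjusted p = 0.0478). Among the marker lists the ratio fell for 22 of 23 cardiac (median -1.40), 6 of 6 endothelial (-1.41) and 5 of 6 leukocyte genes (-1.37). It rose for 1 of 8 genes of proliferating cells, whose median was 1.59. The part of these shifts in the changes of the members was not tested.

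The changes in polyA RNA, in Ago2-IP RNA and of the ratio use the same libraries and are not independent. Side by side, Pde10a had a log2 change of -1.01 in polyA RNA and 0.25 in Ago2-IP RNA, and Pde3b -1.10 and 0.06. Pde2a had 1.18 and 0.03, and Pde1c 1.24 and 0.03. In each of these 4 genes, and in each other member but Pde5a (0.22 and 0.49), the polyA value was the larger in size. Pde4b (0.28), Pde5a (0.11), Pde1a (-0.24) and Pde4d (-0.32) had changes of the ratio that did not pass. With 1 library left out Pde4b ran from 0.19 to 0.46 and Pde4d from -0.46 to -0.17. The plot of changes shows the 3 quantities with their intervals.

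**Figure D3:**
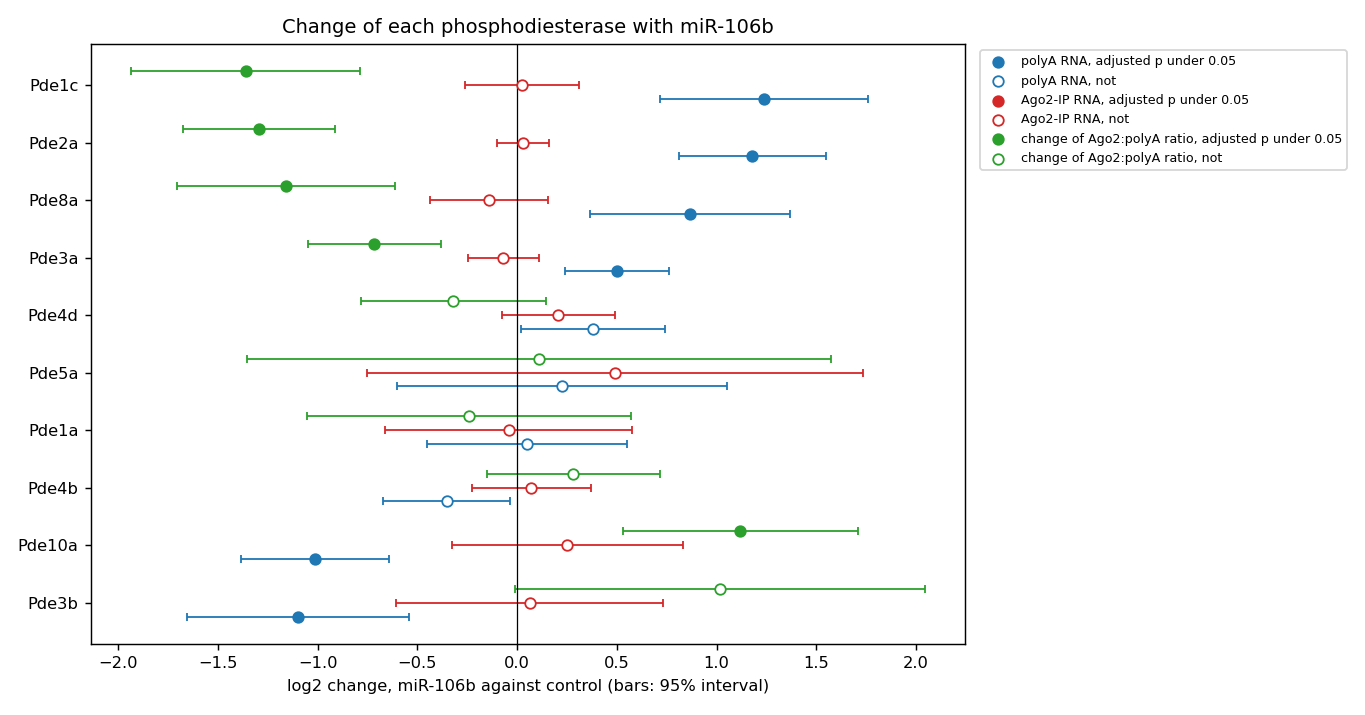
Log2 change with miR-106b against control for each member in polyA RNA, in Ago2-IP RNA and of the Ago2:polyA ratio, with 95% intervals, filled where the adjusted p was under 0.05. The polyA values run from 1.24 (Pde1c) to -1.10 (Pde3b), the Ago2-IP intervals all include 0, and Pde10a is the member whose ratio rose with an adjusted p under 0.05.

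Pde3b and Pde10a were then set against the other members within each library, which does not depend on library scaling. Since both had been picked for the change of their ratio, of which the polyA level is the denominator, these differences are given here as descriptions with their SE, and the exact permutation tests that were run on them support nothing. In polyA RNA the change of the log2 ratio ran from -2.42 (SE 0.538, to Pde1c) to -0.89 (SE 0.447, to Pde4b) for Pde3b. For Pde10a it ran from -2.21 (SE 0.393, to Pde1c) to -0.68 (SE 0.213, to Pde4b). The sign was the same against each of the other 8 members for both genes, and it held with any 1 polyA library left out. Between Pde3b and Pde10a the change was -0.21 (SE 0.245).

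For the Ago2:polyA ratio the same differences were above 0 against each of the other 8 members. They lay between 0.73 (SE 0.748, against Pde5a) and 2.44 (SE 0.450, against Pde1c) for Pde10a, and between 0.85 (SE 0.815, against Pde5a) and 2.56 (SE 0.722, against Pde1c) for Pde3b. Those against Pde5a were no larger than about 1 SE, and Pde5a was also the member with the widest spread in polyA RNA. Pde3b and Pde10a differed from each other by 0.12 (SE 0.566).

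**Figure D4:**
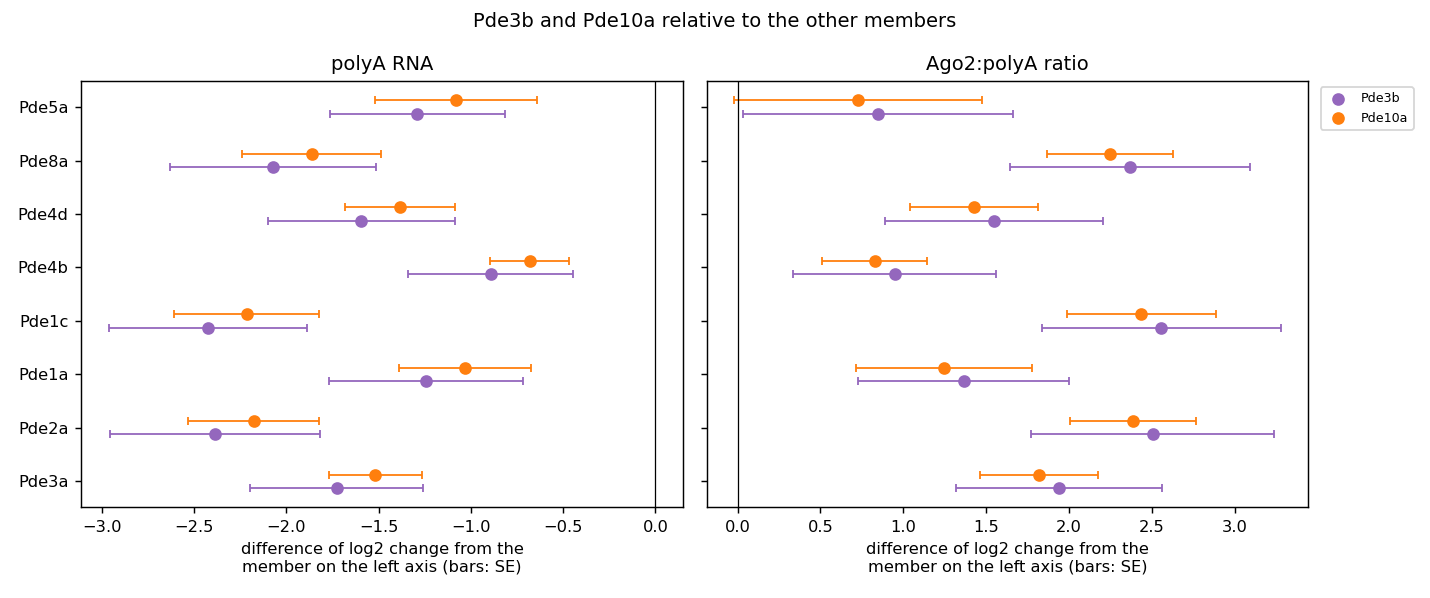
Difference between the log2 change of Pde3b or Pde10a and that of each other member, in polyA RNA (left) and for the Ago2:polyA ratio (right), with the SE. All polyA differences lie below 0 and all ratio differences above 0, and in the ratio panel the bars against Pde5a are the widest.

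Levels between genes were compared per kilobase (kb) of exon. The study names the Ensembl transcriptome of GRCm38 from Illumina iGenomes, and its text gives no release number. Lengths are therefore those of GENCODE M21 exons within the locus of the count table, which differs from that of GENCODE for Pde1c, Pde2a and Pde3a. Pde1c, for which the table ends at 56369634 and GENCODE at 56569103, differs most. In polyA RNA of control cells the order was Pde2a (5.26 ± 0.806 CPM per kb), Pde5a (4.65 ± 1.05), Pde3a (4.09 ± 0.362), Pde3b (3.59 ± 0.528), Pde10a (1.97 ± 0.232), Pde4b (1.96 ± 0.178), Pde8a (1.78 ± 0.494), Pde1a (1.56 ± 0.213), Pde4d (1.29 ± 0.101) and Pde1c (0.336 ± 0.108), each SD with n = 4. Only between Pde3b and Pde10a and between Pde4d and Pde1c did the libraries of neighbours not overlap. The order depends on the exon length used, and per kb of the longest transcript Pde4b was 4 and Pde10a 7 in place of 6 and 5, while Pde2a was still 1 and Pde1c 10.

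With miR-106b the polyA order placed Pde3b 6 and Pde10a 9, at 1.63 ± 0.747 and 0.963 ± 0.203 CPM per kb, while Pde2a stayed 1 at 11.9 ± 2.75 CPM per kb. In Ago2-IP RNA of control cells the first were Pde2a (20.2 ± 1.33 CPM per kb), Pde3a (6.45 ± 0.802) and Pde8a (5.46 ± 0.516), and the last were Pde3b (0.541 ± 0.274) and Pde10a (0.412 ± 0.0709). The sum of the 10 members was 26.5 ± 1.68 CPM per kb in polyA control and 34.5 ± 2.81 in polyA miR-106b. In Ago2-IP RNA it was 40.1 ± 0.550 in control and 40.6 ± 1.13 in miR-106b libraries.

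Of that sum Pde2a made up 19.8% ± 2.23 in polyA control, 34.6% ± 7.61 in polyA miR-106b and 50.5% ± 3.03 in Ago2-IP control libraries (SD, n = 4). The share of Pde3b was 13.7% ± 2.67, 4.81% ± 2.35 and 1.34% ± 0.673 in the same groups, and that of Pde10a 7.49% ± 1.34, 2.81% ± 0.671 and 1.03% ± 0.180. The share of Pde3a was 15.4% ± 0.781, 16.7% ± 0.999 and 16.1% ± 1.90. In each of Pde2a, Pde3b and Pde10a the polyA miR-106b share lay between the polyA control and the Ago2-IP control shares. It did so too for Pde1a (5.88%, 4.66% and 2.30%) and Pde1c (1.26%, 2.28% and 3.08%). The same held for Pde5a (17.5%, 15.3% and 2.22%) and Pde8a (6.67%, 9.33% and 13.6%). It did not for Pde3a, for Pde4b (7.46%, 4.50% and 4.94%) and for Pde4d (4.89%, 4.96% and 4.93%). The cardiac sum of polyA miR-106b also lay between those of polyA control and Ago2-IP control, and a link was not tested.

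**Figure D5:**
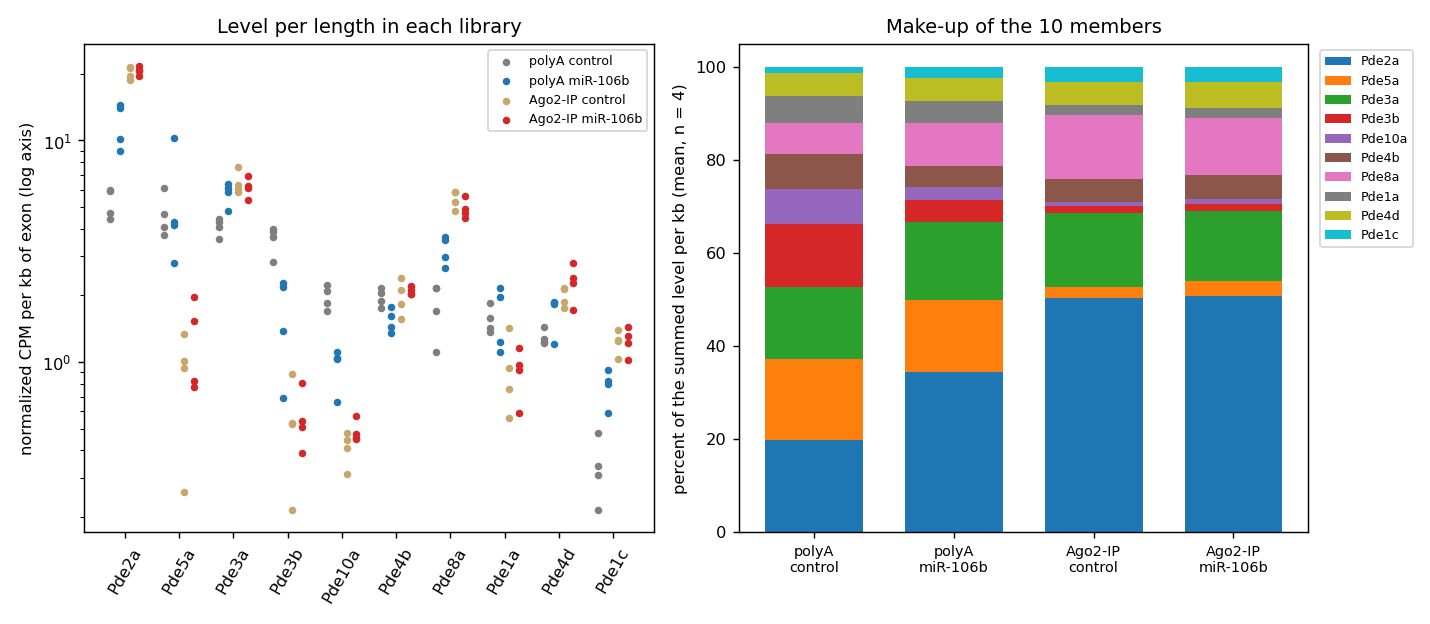
Level per kb of exon of each member in each library on a log axis (left) and the mean percent that each member contributes to the summed level per kb in each group (right, n = 4). Pde2a grows from 19.8% in polyA control to 50.5% in Ago2-IP control, and Pde3b and Pde10a shrink from 13.7% and 7.49% to 1.34% and 1.03%.

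The rest of the pathway was described by counts. Of 14 other phosphodiesterase genes 10 were tested, and in polyA RNA 4 rose and 1 fell, where 19.0% of all genes rose and 21.5% fell, shares that hold for the counts of the next lists too. The cAMP-specific Pde4c rose by 1.05 on the log2 scale (adjusted p = 0.00115), and Pde7b, also cAMP-specific, by 1.02 (adjusted p = 0.00885). Pde8b, the closest relative of Pde8a, fell, with a log2 change of -0.71 (adjusted p = 0.00461), from 22.5 ± 3.11 to 13.6 ± 2.08 CPM (SD, n = 4). Pde8a and Pde8b therefore passed the test in opposite directions, as did Pde3a and Pde3b.

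Of 16 adenylyl and guanylyl cyclase genes 13 were tested, and 8 rose and 0 fell in polyA RNA in edgeR's quasi-likelihood test. The largest rises were those of Adcy5 (log2 change 1.19, adjusted p = 0.000757), the main adenylyl cyclase of heart muscle together with Adcy6, and of Adcy4 (1.16, adjusted p = 0.00231). Among 13 effectors of cAMP and cGMP 6 rose and 2 fell. Popdc2, a cAMP-binding membrane protein of muscle, rose by 1.28 (adjusted p = 0.000683) and Rapgef4, the exchange factor Epac2, by 1.21 (adjusted p = 0.0133). Prkar2b, a regulatory subunit of protein kinase A, had a log2 change of -1.27 (adjusted p = 0.00123), and Prkg2, a cGMP-dependent kinase, one of -1.09 (adjusted p = 0.0422).

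Of 11 anchoring protein genes 4 rose and 3 fell. Pde4dip (myomegalin), which binds phosphodiesterase 4, rose by 1.17 (adjusted p = 0.000683), and Akap6, which tethers protein kinase A and phosphodiesterase 4 at the nuclear envelope of muscle cells, by 1.11 (adjusted p = 0.000692). Akap12 (gravin) had a log2 change of -0.92 (adjusted p = 0.0101) and Akap9, a scaffold of the Golgi and centrosome, one of -0.46 (adjusted p = 0.00608). In Ago2-IP RNA 0 genes of these 4 lists passed edgeR's test. The Ago2:polyA ratio fell for 4 of the 10 other phosphodiesterases, 8 of 13 cyclases, 7 of 13 effectors and 4 of 11 anchors tested, and rose for 0, where 19.7% of all genes fell and 7.61% rose.

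The genes most like Pde3b and Pde10a were those with the highest Pearson correlation of log2 CPM over the 16 libraries, among 10004 genes. The libraries differ in RNA kind, transfection and depth, which all genes of a library have in common, so the values are descriptions. For Pde3b they were Fam102b (0.965), Arl14ep (0.964), Fem1b (0.964), Dock5 (0.962) and Mtmr4 (0.960). For Pde10a they were Ppia (0.982), Prkca (0.982), Il17ra (0.980), Ipo9 (0.979) and Rps18 (0.979), of which Ppia and Rps18 have near-identical pseudogene copies that can share reads. Pde3b and Pde10a had a correlation of 0.892 with each other, Pde2a and Pde8a one of 0.976, and Pde2a and Pde10a one of -0.960.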

How the data were processed

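PolyA RNA and Ago2-IP RNA were measured in 16 libraries (4 groups of 4), grouped by the labels. The deposited values are raw counts per gene, made by the authors from non-strand-specific single-end reads aligned to GRCm38 and counted with HTSeq, with no normalization. The submitters' processing notes name TopHat2 version 2.0.10, and the methods of the study name a different version. File starts count from 0 (87.3% of the shared IDs lie 1 base below GENCODE M21), and coordinates are given from 1.

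Genes reaching 1 CPM in 3 or more of the 4 libraries of some group were kept, 14897 of 46078. Counts were scaled by TMM and tested with the quasi-likelihood F test of edgeR 4.0.16 (R 4.3.3, robust, two-sided, Benjamini-Hochberg over all genes kept, threshold 0.05), in separate fits of 8 libraries for polyA and Ago2-IP RNA and in 1 fit of 16 for ratios. The prior count was 0.125 for fitted changes and 2 for log2 CPM. Normalized CPM are scaled by TMM within each RNA kind, marker sums by library size. Intervals are 95%. Pairs of members were compared by exact permutation of the transfection labels over 70 relabellings, or 4900 within RNA kinds. The exact p is the share of relabellings with a difference at least as large, and the lowest in polyA RNA was 0.0286. It is no evidence where the study picked Pde3b and Pde10a on these libraries.

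The members, pathway lists and marker lists were chosen with earlier results of these data known. All members are named, then up to 2 rises and 2 falls per pathway list at a mean of at least 5 CPM in polyA RNA, and 5 genes most like Pde3b and Pde10a. Same-numbered replicates had correlations of deviations between -0.383 and 0.220 over the pairs of groups, so the numbers were not used to pair libraries. Duplicated libraries were not found. Alternatives were DESeq2 1.42.0, other scalings, filters and prior counts, a likelihood ratio test, a replicate block and leaving out each library. Protein sequences were not used here.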

Additional observations from a re-analysis of the deposited data

Results flagged for a closer look

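Pde4d in polyA RNA of miR-106b cells had 1 library far from the others, replicate 1 at 14.6 CPM, where the other 3 lay between 22.1 and 22.5 CPM. Of 40 groups of 4 libraries examined this was the only such case, and chance marks about 1 in 20. The same library had the lowest cardiac sum and the highest Pde5a level of its group, and its part in the Pde4d value was not tested beyond leaving it out.

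For 5 members the change with miR-106b differed between Ago2-IP and polyA RNA by the test of the difference itself, which 27.3% of all genes tested passed (7.61% higher, 19.7% lower). The difference (Ago2-IP minus polyA, log2) was -1.36 for Pde1c, -1.30 for Pde2a, -0.72 for Pde3a, -1.16 for Pde8a and 1.12 for Pde10a. The value for Pde3b was 1.02, a 2.03-fold rise, and did not pass this test.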

How the results depend on the processing

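The number of members called was 6 in polyA RNA (6 to 8 over 9 alternatives, 6 to 7 with 1 library left out), 0 in Ago2-IP RNA (0 throughout), 5 for the change of the ratio (5 to 6 in both), 9 for the ratio in control (6 to 9, and 8 to 9) and 8 with miR-106b (7 to 9, and 8 to 9). Of the 17 differences of Pde3b or Pde10a from a member, those with an adjusted exact p under 0.05 numbered 13 in polyA RNA (0 to 14 with 1 library left out, 0 without any 1 polyA control) and 10 for the ratio (4 to 11, 4 without any 1 polyA control or miR-106b replicate 2 or 4 of either RNA kind), and are no evidence for genes picked on these libraries. The replicate block gave 6, 0, 5, 8 and 8 members, in the order above, and changed no call but that of Pde4b for the ratio in control; replicate-matched pairs were not run because the numbers did not pair libraries. With all 16 libraries in 1 fit 3829 of 6237 genes called in polyA RNA were higher, against 2836 of 6034, the median of all genes was 0.07 in place of -0.05, and Pde4d passed (0.51); Pde4b and Pde4d passed under the likelihood ratio test. Values that did not pass changed sign: Pde5a in polyA RNA under the likelihood ratio test (-0.11), Pde1a in Ago2-IP RNA under the replicate block (0.0041) and the likelihood ratio test (0.034). With 1 library left out the ranges were -0.093 to 0.23 for Pde1a and -0.23 to 0.44 for Pde5a in polyA RNA; -0.22 to 0.26 (Pde1a), -0.054 to 0.11 (Pde1c), -0.0051 to 0.059 (Pde2a), -0.13 to 0.020 (Pde3a), -0.19 to 0.40 (Pde3b) and -0.023 to 0.19 (Pde4b) in Ago2-IP RNA; and -0.41 to 0.062 (Pde1a) and -0.19 to 0.66 (Pde5a) for the change of the ratio. The cause was not tested. With at least 10 counts in every library, 8 of 10 members were left for Ago2-IP RNA and ratios, without Pde3b and Pde5a. The 7 to 30 counts of Pde3b in Ago2-IP control libraries limit its ratio. Members with a seed match numbered 3 in the longest 3′UTR, 3 in any 3′UTR and 5 with 6mers.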
